A study of Mus musculus with 6 samples.

Results

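The genes described here are 9 integrin subunits of T cells, Itgae, Itgb7, Itga4, Itgb1, Itgal, Itgb2, Itgav, Itgb3 and Itga6, together with Icam1. They were taken by name from a table of 41388 mouse genes, after the Ensembl identifiers had been mapped to symbols. All 10 were found, and all 10 were among the 11379 genes that averaged 10 or more normalized counts over the 6 libraries, which were tested. In IRF1-deficient Th9 cells kept with IFN-γ, 4 of them were lower than in WT cells (Itga4, Itgb1, Itgb7 and Itgal), 1 was higher (Itga6) and 5 did not pass the test. Of all genes tested, 12.4% were called lower, 11.4% higher and 23.7% in either direction.

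Integrins are adhesion receptors made of an α and a β chain, and neither chain reaches the cell surface on its own. In T cells the β2 chain (Itgb2) joins αL (Itgal) to form LFA-1, the receptor for the immunoglobulin-family ligand ICAM-1, which T cells carry as well. The α4 chain (Itga4) joins either β1 (Itgb1), as the VLA-4 receptor for VCAM-1 and fibronectin, or β7 (Itgb7), as the gut-homing receptor for MAdCAM-1. The αE chain (Itgae, CD103) pairs with β7 and binds E-cadherin of epithelia, α6 (Itga6) pairs with β1 in a laminin receptor, and αv (Itgav) with β3 (Itgb3) binds vitronectin and other proteins with an RGD sequence. IRF1 is a transcription factor induced by IFN-γ.

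RNA-Seq was performed on 3 WT cultures and 3 cultures of IRF1-deficient T cells, the latter from Irf1-/- mice, to ask which transcripts differ without IRF1. Both groups came from mice of the C57BL/6 background aged 8 to 12 weeks. Spleen and lymph node cells were enriched for T cells by negative magnetic selection, primed with antibodies to CD3 and CD28, and kept for 2 days in IL-2, IL-4 and TGF-β with IFN-γ at 5 ng per ml, so that no culture without IFN-γ enters the comparison. The study's methods name them naive CD4+ T cells. For such cultures the methods also list an antibody to mouse IFN-γ in the medium, and the IFN-γ added was recombinant rat protein. The deficiency is carried by every cell of the animal, and the methods give purchased C57Bl/6 mice and Irf1-/- mice bred in house, so that genotype and origin of the mice cannot be told apart.

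The deposited values are normalized counts, that is, read counts scaled by a factor for the size of each library, from libraries with 5639788 to 13348230 reads on genes, and 3 reads are worth 1.84 to 4.16 normalized counts. Values per library are given in the order of replicates 1, 2 and 3. Irf1 itself had 2968, 2907 and 2659.8 normalized counts in WT cells and 1780.2, 1729 and 1476 in IRF1-deficient cells, a log2 fold change of -0.78 ± 0.0756 (SE, limma, adjusted p = 7.32e-05). The Irf1 transcript was thus lower but still counted in the deficient cells, and a count per gene does not show which exons the reads covered. All 10 T cell markers were present (summed level 21552 to 22152 in WT and 22279 to 23378 in IRF1-deficient libraries), while the 6 B cell markers summed to 27.5 to 34.9 in WT and 22.4 to 41.8 in IRF1-deficient libraries, with Pax5 at 0, and the 5 NK cell markers to 0 to 2.46 and 2.77 to 8.36, with Ncr1, Klrb1c and Klra8 at 0. WT replicates 1 and 2 held transcripts of 4 Y-linked genes and the other 4 libraries held Xist, so that only WT replicate 3 matches the sex of the deficient libraries. The 2 libraries of replicate 3 were the deepest of each genotype. Values within the 4 libraries with Xist and within the 4 smaller ones are therefore given for the 10 genes where they differ in call or direction. With Xist there is 1 WT library against 3 deficient ones, and the lone library is assumed to vary like the others. In bulk RNA, fewer cells of a type and less RNA per cell cannot be told apart, and the p-values cover the spread between these cultures, described as independent samples in the study. The fit to the 4 smaller libraries, without replicate 3, called 2082 genes lower and 1798 higher, against 1406 and 1293 in all 6. Its adjusted p can be very small even where the replicates of a gene lie far apart. A pass in that setting therefore does not measure the spread of the gene itself.

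The α4 chain and both of its partners were lower without IRF1. Itga4, at chr2:79255426-79333123 on the plus strand (GRCm38), had 363, 319 and 520.0 normalized counts in the WT libraries and 185, 115 and 284 in the IRF1-deficient ones. The genotypes did not overlap, replicate 3 was the highest library in each, and the spread within a genotype was wide. The means were 401 ± 106 (SD, n = 3) and 195 ± 84.7 (SD, n = 3), so that the deficient cells held 48.6% of the WT level, with a log2 fold change of -1.10 ± 0.274 (SE; 95% confidence interval -1.71 to -0.49; limma, adjusted p = 0.0154). The adjusted p was 0.0502 without IRF1-deficient replicate 2, the library with the lowest value, and 0.0688 with DESeq2, over a range of 9.46e-12 to 0.0688 in the 17 alternative analyses. Cerkl, encoded on the other strand, covers 1124 exon bases of Itga4 (8.04%) and was itself at 1.39 to 11.1 normalized counts. Whether the counting used strand is not given in the sources used here.

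Itgb1, the β chain of the VLA family at chr8:128685654-128733200 (plus strand), was at 1782, 1648 and 1736 normalized counts in WT and 918, 904 and 1074 in IRF1-deficient libraries. No deficient library came near the lowest WT library, and the replicates lay close together. The mean went from 1722 ± 68.0 (SD, n = 3) to 965 ± 94.1 (SD, n = 3), or 56.1% of WT, a log2 fold change of -0.84 ± 0.0726 (SE; limma, adjusted p = 3.63e-05). This was the smallest adjusted p among the 10 genes, and Itgb1 was called lower in all 17 alternatives, with log2 fold changes from -0.92 to -0.79.

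Itgb7, the β chain that both αE and α4 use, lies at chr15:102215995-102231944 on the minus strand. It had 644, 667 and 661 normalized counts in WT and 462, 503 and 451 in IRF1-deficient libraries. Its WT libraries differed by little from each other and all stood above the deficient ones. The means were 657 ± 12.02 and 472 ± 27.8 (SD, n = 3 each), the deficient mean being 71.8% of that of WT (log2 fold change -0.48 ± 0.0678, SE; limma, adjusted p = 0.000803), and the gene was called lower in all 17 alternatives. Within the 4 libraries with Xist, the log2 fold changes were -1.51 for Itga4, -0.85 for Itgb1 and -0.49 for Itgb7, and each was still called lower.

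**Figure D1:**
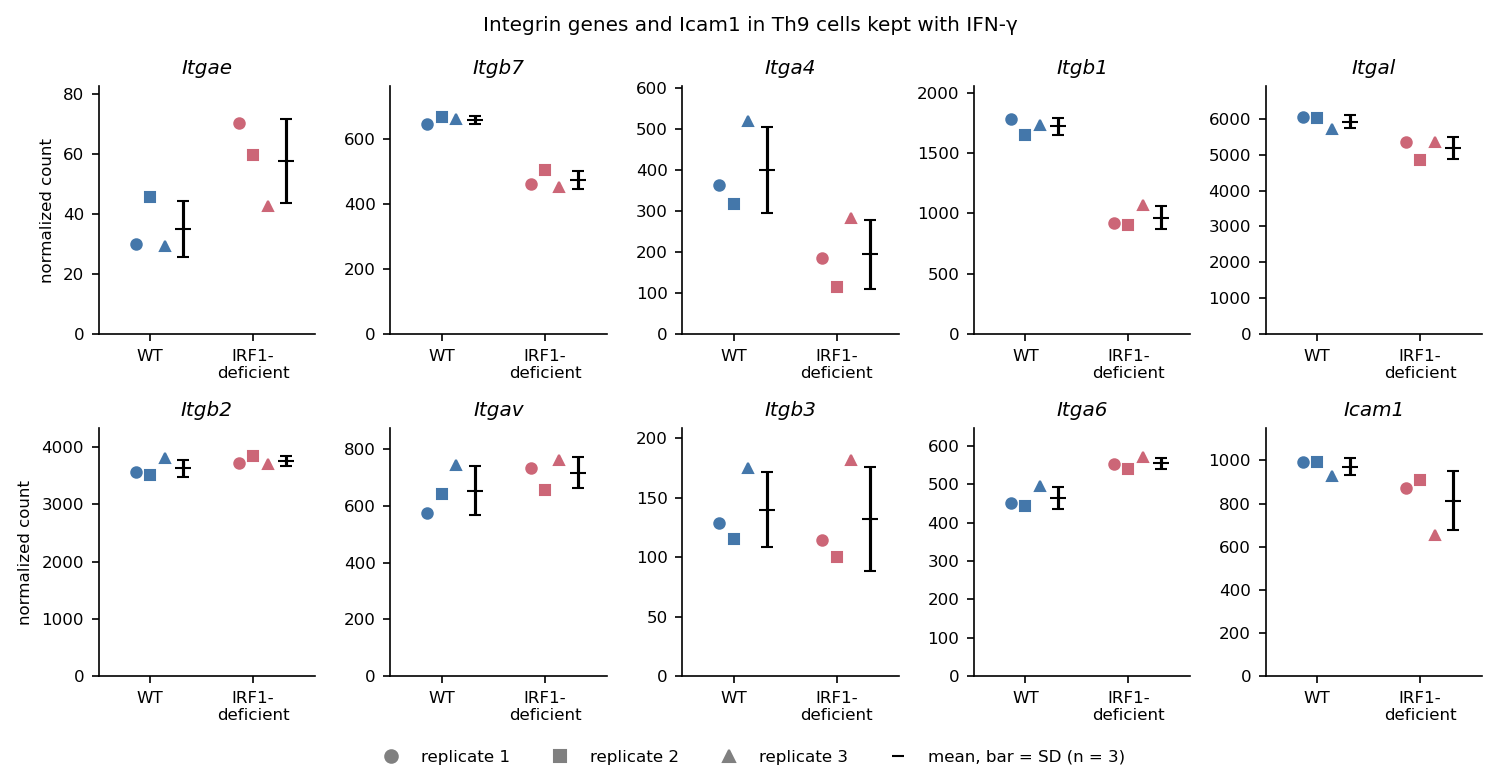
Normalized counts (y axis, linear, from 0) of the 10 genes in WT (blue) and IRF1-deficient (red) Th9 cells, with 1 symbol per library (circle, replicate 1; square, replicate 2; triangle, replicate 3) and the mean ± SD (n = 3) in black. Itga4, Itgb1, Itgb7, Itgal and Icam1 lie lower in every IRF1-deficient library than in any WT library, Itga6 lies higher, and the values of the other 4 genes overlap.

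The letters upstream of these genes are shown because IRF1 is a DNA-binding factor and the 3 genes moved in the same direction. RefSeq promoter windows (GRCm38.p6), 250 bases before to 50 after the annotated start, were matched for 5 of the 10 genes: Itga4, Itgb1, Itgb7, Icam1 and Itgav. Each was searched on both strands for AANNGAAA, the core of an interferon-stimulated response element, for a stricter form of it (GAAA, any 2 bases and GAAA again, of which every match also contains AANNGAAA), and for TTCNNNGAA, the γ-activated site bound by STAT factors. Of 32851 windows of this length, 23.9% held AANNGAAA, 3.44% held the stricter form and 8.30% held TTCNNNGAA. None of the 3 motifs was found in the windows of Itga4 (chr2:79255176-79255475, plus strand), Itgb1 (chr8:128685404-128685703, plus strand) and Itgb7 (chr15:102231886-102232185, minus strand), which says only that these letters are not in these 300 bases. The Icam1 window (chr9:21015690-21015989, plus strand) held 1 TTCNNNGAA, from 42 to 34 bases before the start, printed in capitals. The Itgav window (chr2:83724147-83724446) held 1 AANNGAAA on the opposite strand, from 185 to 178 bases before the start, read as AAAAGAAA. The windows of the 3 genes that were lower, and of Icam1 for comparison, read 5′ to 3′ on the strand of each gene:
Itga4: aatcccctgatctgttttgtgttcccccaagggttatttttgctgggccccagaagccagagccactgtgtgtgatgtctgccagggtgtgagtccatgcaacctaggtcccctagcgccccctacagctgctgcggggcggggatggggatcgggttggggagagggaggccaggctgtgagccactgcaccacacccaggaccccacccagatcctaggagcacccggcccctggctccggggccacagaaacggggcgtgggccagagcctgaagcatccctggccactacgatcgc
Itgb1: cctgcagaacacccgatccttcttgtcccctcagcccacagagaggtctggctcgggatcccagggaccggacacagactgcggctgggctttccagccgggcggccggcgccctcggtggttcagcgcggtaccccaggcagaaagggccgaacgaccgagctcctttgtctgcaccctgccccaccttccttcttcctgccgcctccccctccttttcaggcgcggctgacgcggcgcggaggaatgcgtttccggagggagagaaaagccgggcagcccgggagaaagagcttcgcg
Itgb7: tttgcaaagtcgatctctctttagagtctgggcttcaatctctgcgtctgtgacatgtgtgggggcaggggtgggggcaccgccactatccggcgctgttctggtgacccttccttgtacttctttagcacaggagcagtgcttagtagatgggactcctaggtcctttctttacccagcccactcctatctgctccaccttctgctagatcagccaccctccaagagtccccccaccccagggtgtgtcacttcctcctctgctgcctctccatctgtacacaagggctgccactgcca
Icam1: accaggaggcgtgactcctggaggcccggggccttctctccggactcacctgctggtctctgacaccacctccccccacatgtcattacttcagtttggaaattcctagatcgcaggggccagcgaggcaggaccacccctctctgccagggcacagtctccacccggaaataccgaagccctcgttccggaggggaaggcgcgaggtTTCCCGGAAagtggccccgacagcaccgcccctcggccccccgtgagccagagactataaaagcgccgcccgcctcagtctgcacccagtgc

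The αE chain, the other partner of β7, did not pass the test. Itgae (chr11:73090583-73147446, plus strand) had 30.0, 45.7 and 29.5 normalized counts in WT and 70.4, 59.6 and 42.8 in IRF1-deficient libraries, from only 24 to 67 reads per library. Most deficient libraries were above the WT ones, but IRF1-deficient replicate 3 was below WT replicate 2. With means of 35.0 ± 9.21 and 57.6 ± 13.9 (SD, n = 3 each), the log2 fold change was 0.70 (95% confidence interval 0.17 to 1.24) and did not pass the test (limma, adjusted p = 0.0579). It passed without WT replicate 2 (0.0391), without IRF1-deficient replicate 3 (0.0215) and in the 4 smaller libraries (0.00838), over a range of 0.00838 to 0.200 in all alternatives.

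Itgae lies 19.3 Mb and Itgb3 50.8 Mb from Irf1 on chromosome 11. Haspin, a gene within an intron of Itgae with no shared exon bases, had a mean of 343 ± 7.04 in WT and 336 ± 3.29 in IRF1-deficient cells (SD, n = 3 each; log2 fold change -0.03, limma, adjusted p = 0.780). αE is also carried by CD8 and regulatory T cells. The 2 CD8 markers summed to 32.4 to 41.2 normalized counts in WT and 20.3 to 30.7 in IRF1-deficient libraries. The 5 regulatory T cell markers, all present, summed to 12805 to 17002 and 14082 to 16995. A single marker, with a mean of 12146 over the 6 libraries, made up most of the sum, so that the sums say little about the rest. Among these 5, Foxp3 was higher (172 to 189.7 normalized counts in WT, 331 to 343 in deficient libraries) and Ikzf2 lower (means 1778 and 958). Lrrc32 was not called (means 97.6 and 94.3, log2 fold change -0.07). The part of regulatory T cells in the Itgae values was not tested.

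The LFA-1 chains are the most abundant integrin transcripts of these cells, and the α chain was slightly lower. Itgal (chr7:127296260-127335138, plus strand) had 6054, 6012 and 5709 normalized counts in WT and 5355, 4843 and 5369 in IRF1-deficient libraries. Every deficient library was below every WT library, by a small margin. The means were 5925 ± 188 and 5189 ± 299.7 (SD, n = 3 each), 87.6% of WT, with a log2 fold change of -0.19 ± 0.0560 (SE; limma, adjusted p = 0.0307). The call was lost when WT replicate 1 or 2 or IRF1-deficient replicate 1 or 2 was left out (adjusted p 0.121, 0.113, 0.0553 and 0.110), and with a term for Y-linked reads (0.116). Within the 4 libraries with Xist the log2 fold change was -0.14 (adjusted p = 0.369, the highest of all alternatives, whose lowest was 6.93e-06).

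Itgb2, the common β chain of leukocyte integrins (chr10:77530252-77565708, plus strand), was at 3568, 3521 and 3804 normalized counts in WT and 3720.3, 3854 and 3701 in IRF1-deficient libraries. These values overlapped, and the log2 fold change was 0.05 (95% confidence interval -0.06 to 0.16; limma, adjusted p = 0.517). The interval leaves room for changes of either sign no larger than 0.16. The sign turned within the 4 libraries with Xist (-0.018). β2 is also a chain of myeloid integrins. The 10 myeloid markers were all above 0 and summed to 621 to 828 normalized counts in WT and 288 to 1373 in IRF1-deficient libraries, 8 of them being highest in IRF1-deficient replicate 2. There Itgam, the αM chain, had 45.8 normalized counts against 1.2 to 15.5 in the other 5 libraries, and Itgb2 had its highest value. Their part in the Itgb2 value was not tested.

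Icam1, which encodes the LFA-1 ligand and lies at chr9:21015985-21028817 (plus strand), had 995, 992 and 926 normalized counts in WT and 874, 911 and 656 in IRF1-deficient libraries. The genotypes did not overlap, and IRF1-deficient replicate 3 lay far below the other deficient libraries. Means of 971 ± 38.6 and 814 ± 138 (SD, n = 3 each) gave a log2 fold change of -0.27 (95% confidence interval -0.51 to -0.03) that did not pass the test (limma, adjusted p = 0.0979). Without IRF1-deficient replicate 3 the log2 fold change was -0.12. In the 4 smaller libraries the log2 fold change was -0.15 and passed (0.0475), while within the 4 libraries with Xist it was -0.20 (0.499), over a range of 0.00304 to 0.499 in all alternatives. Gm47079, an antisense gene not analysed here, covers 511 exon bases of Icam1 (11.7%).

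Neither chain of αvβ3 passed the test. Itgav (chr2:83724397-83806916, plus strand) had 574, 643 and 744 normalized counts in WT and 734, 657 and 759.9 in IRF1-deficient libraries, which overlapped. Its log2 fold change was 0.14 (95% confidence interval -0.07 to 0.35; limma, adjusted p = 0.333). It was 0.19 in the 4 smaller libraries, where it passed (0.0351), and -0.056 within the 4 libraries with Xist (0.817, the highest of all alternatives). Gm13684, on the other strand, covers 634 exon bases of Itgav (5.90%) and had 3.74 to 9.62 normalized counts. Itgb3 (chr11:104608000-104670476, plus strand) had 129, 115 and 175 normalized counts in WT and 115, 99.9 and 181 in IRF1-deficient libraries. In both genotypes replicate 3 was the highest, as it was for Itga4. Its log2 fold change was -0.11 (95% confidence interval -0.59 to 0.38; limma, adjusted p = 0.765), with a sign that turned without WT replicate 3 (0.067) and without IRF1-deficient replicate 2 (0.069). β3 is a platelet chain too. Of the 6 platelet markers Ppbp, Gp9 and Gp1bb were at 0, while all 6 summed to 20.9 to 33.7 normalized counts in WT and 26.8 to 69.3 in deficient libraries. The highest sum was in IRF1-deficient replicate 2, where 1 of the markers had its highest value and Itgb3 its lowest (99.9). The part of platelets in the Itgb3 values was not tested.

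Itga6 was the member called higher. This laminin-binding α chain (chr2:71745616-71858416, plus strand) had 452, 442 and 497 normalized counts in WT and 553, 541 and 571 in IRF1-deficient libraries. All deficient libraries were above all WT libraries, and WT replicate 3 was the nearest to them. The means were 464 ± 29.0 and 555 ± 15.0 (SD, n = 3 each), 119.7% of the WT level, with a log2 fold change of 0.26 ± 0.0708 (SE; limma, adjusted p = 0.0230). The call was lost with DESeq2 (0.0671), with WT replicate 1 or 2 or IRF1-deficient replicate 1 or 2 left out (0.0862, 0.0960, 0.0674 and 0.0503), with a term for Y-linked reads (0.224) and within the 4 libraries with Xist. In those 4 libraries the log2 fold change was 0.16 (adjusted p = 0.412, the highest of all alternatives, whose lowest was 0.00250).

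**Figure D2:**
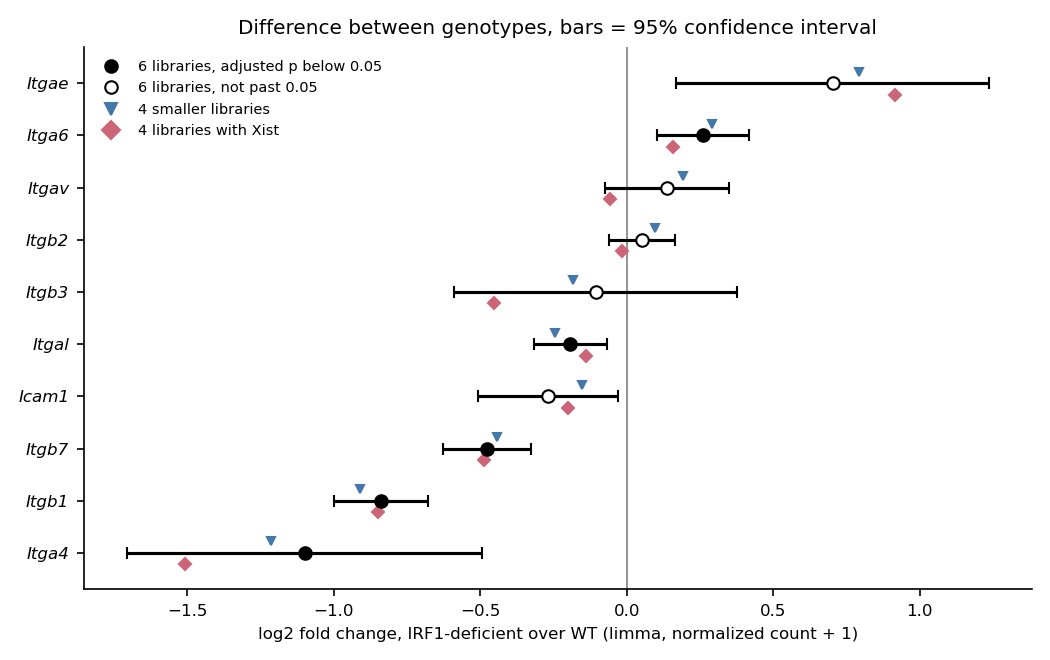
Log2 fold change of each gene, IRF1-deficient over WT (x axis), as a circle (filled where called) with its 95% confidence interval from limma as a bar, a blue triangle for the 4 smaller libraries and a red diamond for the 4 with Xist. The intervals of Itga4, Itgb1, Itgb7, Itgal and Icam1 lie below 0 and those of Itga6 and Itgae above it, while those of Itgb2, Itgav and Itgb3 span 0, and after adjustment over 11379 genes Icam1 and Itgae do not pass.

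The values did not overlap between genotypes for 5 members that were lower and 1 that was higher, where 20.9% and 19.7% of all genes tested did so in these directions and 40.5% in either. The median log2 fold change was -0.15 over the 10 members and -0.0037 over all genes tested.

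Levels of different genes were compared as normalized counts per kilobase of exon. In WT cells Itgb2 (1190 ± 49.7) and Itgal (902 ± 28.6) led, followed by Itgb1 (422 ± 16.7), Itgb7 (237 ± 4.34) and Icam1 (223 ± 8.86). Itgav (60.9 ± 7.97), Itga6 (51.4 ± 3.21), Itga4 (28.7 ± 7.57) and Itgb3 (23.7 ± 5.32) came next and Itgae (7.65 ± 2.01) last (SD, n = 3 each). Itgav and Itga6, and Itga4 and Itgb3, were neighbours whose libraries overlapped. LFA-1 was thus the integrin with the most transcript per length for both of its chains, and the lowest member, Itgae, lay 156-fold below the highest.

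In IRF1-deficient cells the order began alike, with Itgb2 (1231 ± 27.3), Itgal (790 ± 45.6) and Itgb1 (237 ± 23.0). Icam1 (187 ± 31.6) and Itgb7 (170 ± 10.0) overlapped, as did Itgav (66.8 ± 4.97) and Itga6 (61.5 ± 1.66). Itgb3 (22.4 ± 7.37), Itga4 (13.9 ± 6.06) and Itgae (12.6 ± 3.04) closed the order, with overlap between each and the next. The range from highest to lowest was 97.9-fold. Parts of this order depend on the length used. Divided by coding length in place of exon length, Itgal (1644 ± 52.2) overlapped Itgb2 (1572 ± 65.7) at the top in WT cells, and Icam1 stood above Itgb7. By coding length Itga4 (62.9 ± 27.4) and Itgae (16.5 ± 3.98) did not overlap in IRF1-deficient cells, whereas per exon length they did.

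**Figure D3:**
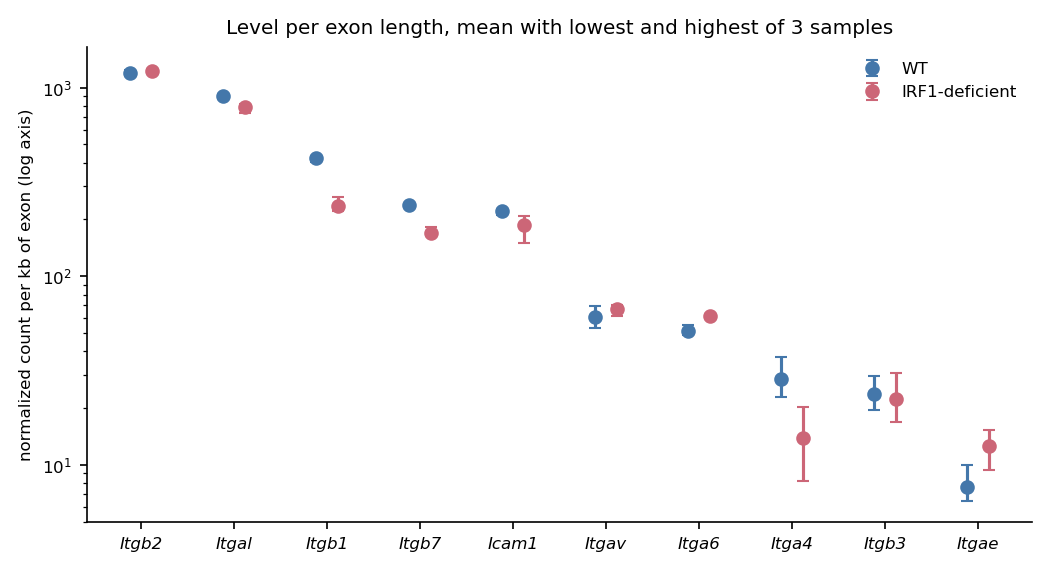
Normalized counts per kilobase of exon (y axis, log) of the 10 genes in WT and IRF1-deficient cells, as the mean with the lowest and highest of 3 libraries. Itgb2 and Itgal stand highest in both genotypes, and Itgae is the lowest in WT cells with a mean of 7.65 and in IRF1-deficient cells with 12.6, where it overlaps Itga4 (13.9) on this scale but not per coding length.

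Because the chains work in pairs, the log2 ratio of the α to the β transcript was compared between genotypes in 6 known pairs. Only the change of a ratio is read here, since the counts are not divided by length, and with 3 against 3 cultures the smallest p of an exact two-sided permutation test is 0.1. For αE/β7 the log2 ratio was -4.38, -3.84 and -4.44 in WT and -2.70, -3.06 and -3.37 in IRF1-deficient libraries. The ratio was higher by 1.18, with no overlap (exact permutation p = 0.1, adjusted over 6 ratios 0.2), in cells where Itgb7 was lower and Itgae did not pass. For α6/β1 the log2 ratio was -1.98, -1.90 and -1.80 in WT and -0.73, -0.74 and -0.91 in IRF1-deficient libraries. The ratio was higher by 1.10, also with no overlap (exact permutation p = 0.1, adjusted 0.2), and the 2 chains of this pair had moved in opposite directions.

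For αL/β2 the log2 ratio was 0.76, 0.77 and 0.59 in WT and 0.53, 0.33 and 0.54 in IRF1-deficient libraries, a difference of -0.24 with no overlap (exact permutation p = 0.1, adjusted 0.2). WT replicate 3, the only WT library with Xist, had 0.59, close to the 0.53 and 0.54 of IRF1-deficient replicates 1 and 3. No ratio was compared within the 4 libraries with Xist. The α4 ratios overlapped between genotypes. They differed by -0.62 for α4/β7 (exact permutation p = 0.3) and by -0.26 for α4/β1 (exact permutation p = 0.5). Without IRF1-deficient replicate 2 the first was -0.25 and the second turned to 0.022, and without IRF1-deficient replicate 3 they were -0.97 and -0.50, while without WT replicate 3 the second was -0.065. The αv/β3 ratio differed by 0.25 (exact permutation p = 0.4), with overlap, and by 0.13 to 0.45 with 1 library left out (lowest without IRF1-deficient replicate 2, highest without IRF1-deficient replicate 3).

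**Figure D4:**
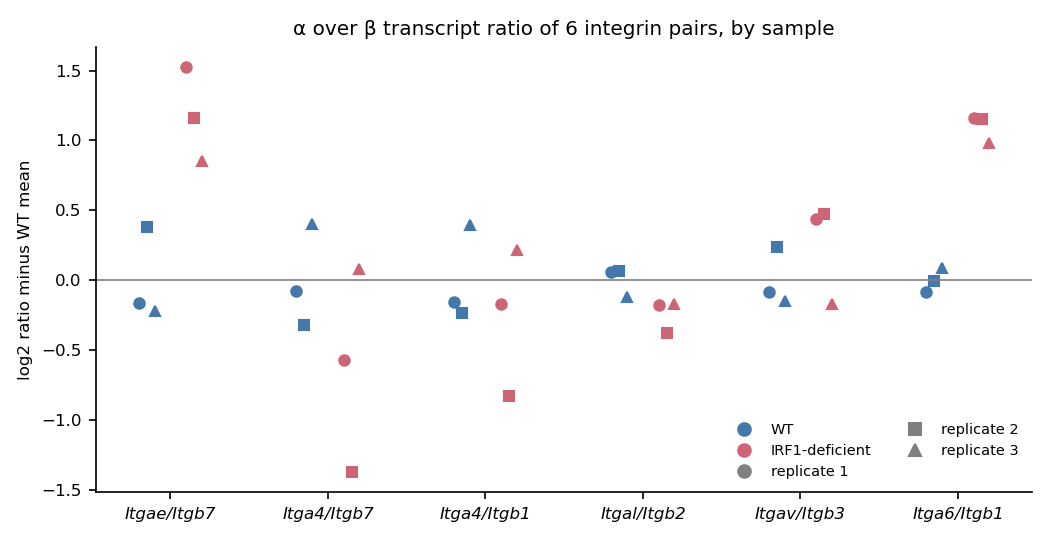
Log2 ratio of normalized counts (plus 1) of the α over the β transcript minus the WT mean of that ratio (y axis), with 1 symbol per library, for 6 integrin pairs in WT (blue) and IRF1-deficient (red) cells. The ratios of αE/β7 and α6/β1 lie higher and that of αL/β2 lower in every IRF1-deficient library than in any WT library, while the other 3 pairs overlap.

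The 27 integrin subunits of the mouse include the 9 above, and 19 were tested. Of these, 4 were lower and 2 higher, with a median log2 fold change of 0.03, and 13 did not pass. The share called was 31.6%, against 23.7% of all genes tested. All 4 that were lower are members, and the members were chosen with earlier results of these data known. Among the 10 tested subunits that are not members 1 was called, Itga7, named after its values were seen. Mean levels over the 6 libraries ran from 10.4 to 199.7 in these non-member subunits and from 46.3 to 5557 in the members. The calls of members and non-members are therefore not compared. Itga7, another laminin receptor chain, had 0.0, 3.6 and 6.1 normalized counts in WT and 16.7, 18.0 and 40.9 in IRF1-deficient libraries, the WT values resting on 0, 3 and 10 reads. It reached the mean of 10 only through the deficient group, where it is high, so that its call is no support for a difference, and it was not called within the 4 libraries with Xist.

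Among 25 integrin ligands, 13 were tested, 1 was lower and 1 higher, and the median log2 fold change was -0.07. The share called was 15.4%, below the 23.7% of all genes tested. Vcam1, the ligand of α4β1, had 307, 339 and 173 normalized counts in WT and 38.2, 33.3 and 40.3 in IRF1-deficient libraries. All deficient libraries were far below all WT libraries, at 13.6% of the WT mean (log2 fold change -2.79 ± 0.222, SE; limma, adjusted p = 2.39e-05), and the call held in all 17 alternatives. Lama5, a laminin chain and so a ligand of α6β1, had 54.9, 80.5 and 83.0 normalized counts in WT and 230.4, 262 and 364 in deficient libraries. It was 3.92-fold higher, with no overlap (log2 fold change 1.95 ± 0.194, SE; limma, adjusted p = 8.48e-05), in all 17 alternatives. Thbs1 and Fn1, named after their values were seen, did not pass in all 6 libraries (limma, adjusted p 0.245 and 0.303). The highest adjusted p over the alternatives was 0.707 and 0.815. In the 4 smaller libraries the log2 fold changes were 2.43 and 1.25, and both passed although replicates lay far apart. There Thbs1 had 71.1 and 270 normalized counts in WT and 425 and 1327 in IRF1-deficient libraries. Fn1 had 79.9 and 188 in WT and 198 and 429.9 in IRF1-deficient libraries. Each was highest in IRF1-deficient replicate 2, the library with the highest myeloid marker sum (Thbs1 1327 against 61.4 to 425 in the other 5, Fn1 429.9 against 76.05 to 198), and the part of other cells in these values was not tested.

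Of 46 genes that switch integrins on or link them to actin, 38 were tested, 3 were lower and 7 higher, with a median log2 fold change of 0.01. The share called was 26.3%, near the 23.7% of all genes tested. The 3 that were lower were Stk4 (the MST1 kinase, -0.41), Actn1 (α-actinin, -0.37) and Ptk2b (the PYK2 kinase, -0.32), all as log2 fold changes. Among those higher were Zyx (zyxin, 0.47), Ptk2 (focal adhesion kinase, 0.39), Flna (filamin A, which binds β tails, 0.33) and Parvg (γ-parvin, 0.32). Zyx went from 703 ± 18.8 to 973 ± 41.4 normalized counts and Stk4 from 2494 ± 16.7 to 1880 ± 58.7 (SD, n = 3 each; limma, adjusted p = 0.000447 and 0.000307), both with no overlap. The other 3 that were higher, named after their values were seen, were Skap1 (0.31), Fermt3 (kindlin-3, 0.22) and Bcar1 (5.55 ± 2.78 normalized counts in WT and 20.3 ± 7.11 in IRF1-deficient cells, SD, n = 3 each), which reached the mean of 10 only through the deficient group. Stk4, Actn1 and Zyx were called in all 17 alternatives, Ptk2b in 12 and Ptk2 in 6. Within the 4 libraries with Xist, Stk4, Actn1 and Zyx were still called, while Ptk2b (adjusted p = 0.180, over a range of 4.87e-08 to 0.180) and the other 6 that were higher were not, and Ptk2 was not called in the 4 smaller libraries either (0.0729, over a range of 0.0201 to 0.176). The log2 fold changes in the 4 libraries with Xist were -0.28 for Ptk2b, 0.45 for Ptk2, 0.35 for Flna and 0.27 for Skap1, close to those in all 6, and 0.17 for Parvg and 0.10 for Fermt3, which were smaller. Over all genes tested, the calls went from 1406 to 408 lower and from 1293 to 403 higher in these 4 libraries.

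Of 35 other adhesion and homing genes, 29 were tested, 9 were lower and 4 higher, with a median log2 fold change of -0.06. The share called was 44.8%, against 23.7% of all genes tested, and the list was chosen with earlier results of these data known. Cd226, the activating receptor DNAM-1 that associates with LFA-1, went from 349 ± 17.8 to 177 ± 64.2 normalized counts (SD, n = 3 each; log2 fold change -1.03, limma, adjusted p = 0.00364), and Plxnc1, a semaphorin receptor, went from 261 ± 33.9 to 134 ± 47.4. Among the genes called were the tetraspanins Cd9 (log2 fold change -1.02), Cd81 (-0.71) and Cd53 (1.05), membrane proteins that associate with integrins. They were named because they were called, and tetraspanins were not tested as a family. S1pr1, the receptor for lymph node exit, was 1.99-fold higher (97.3 ± 18.8 to 194 ± 33.9, SD, n = 3 each). Also called, and named after their values were seen, were Cd44, Cd96, Cadm1 and Pecam1, lower, and Fut7 and Crtam, higher, of which Crtam reached the mean of 10 only through the deficient group. In the 4 libraries with Xist, 5 of the list were called lower against 9 in all 6, and Cd9, Cd226, Cd53, Cadm1 and Pecam1 were not among the genes called there (adjusted p 0.173, 0.0675, 0.0863, 0.518 and 0.137). Their log2 fold changes there were -0.83 for Cd9, -0.97 for Cd226, 0.68 for Cd53, -0.58 for Cadm1 (-1.74 in all 6) and -0.72 for Pecam1 (-0.57 in all 6).

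**Figure D5:**
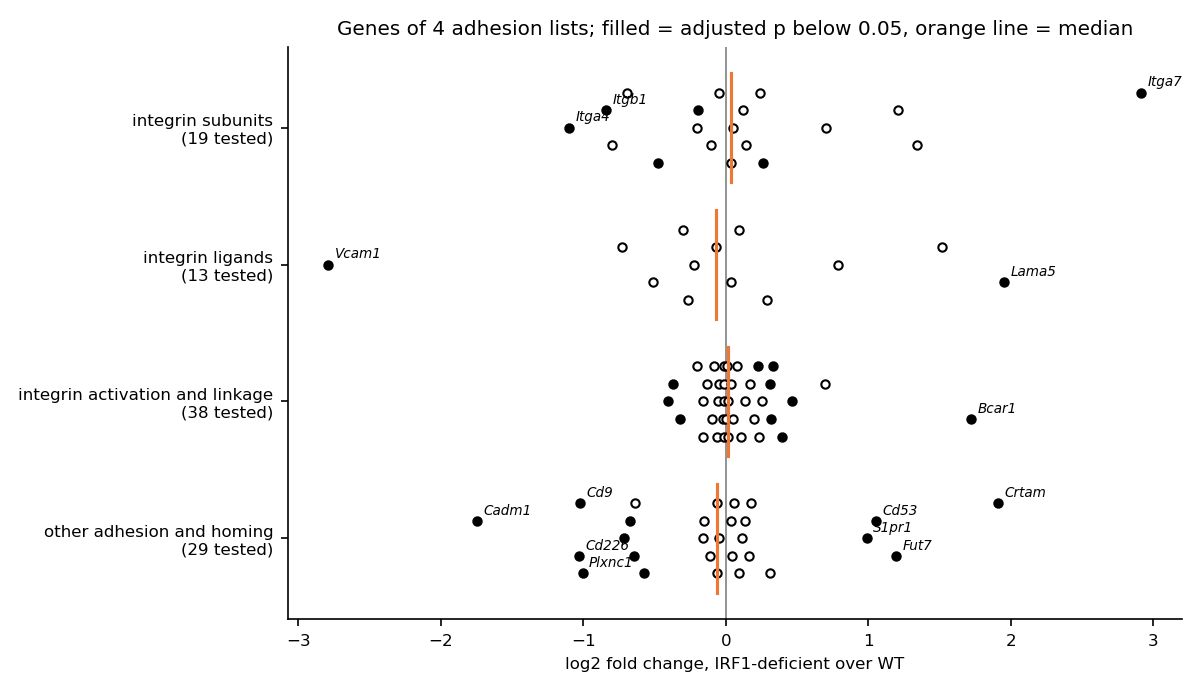
Log2 fold change, IRF1-deficient over WT (x axis), of the tested genes in 4 lists of adhesion genes (1 gene of the last list is not drawn), with genes called at an adjusted p below 0.05 filled and the median of each list as an orange line. The medians lie between -0.07 and 0.03, and Vcam1 (-2.79) lies farthest below 0.

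The genes whose values followed those of Itga4 and Itga6 most closely were looked up among 8224 genes with a mean of at least 100, by Pearson's r of the log2 values over the 6 libraries. For Itga4 they were Gpatch8 (r = 0.995), Trip12 (0.994) and Taf1 (0.993). Their log2 fold changes were much smaller (-0.18, -0.16 and -0.19, against -1.10 for Itga4), and only Taf1 was called (limma, adjusted p = 0.0485). For Itga6 they were Ndrg2 (0.999), Cth (0.998) and Atg2a (0.997), all called, with log2 fold changes of 0.85, 1.20 and 0.25 against 0.26 for Itga6. Pearson's r does not depend on the size of a change. The 6 points share the genotype difference and the library depth, so these values describe likeness in these libraries alone.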

How the data were processed

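RNA-Seq of 6 Th9 cultures was analysed. According to the methods and the submitters' processing notes, the authors aligned reads with STAR 2.4.0b to GRCm38, assigned them to Ensembl genes by featureCounts and normalized them with DESeq2 1.12.3, and the deposited signal is a normalized count, a read count divided by a size factor. Whole reads were recovered for 100% of values (tolerance 0.01). The strand setting of the counting and the treatment of reads shared by genes are not given in the sources used here. The labels and the methods differ on the cells (T lymphocytes, naive CD4+ T cells) and the RNA kit.

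Here, 40254 of 41388 identifiers were matched to symbols. Genes with a mean of at least 10 were tested with limma 3.58.1 (R 4.3.3, eBayes with trend) on log2 of the normalized count plus 1, with Benjamini-Hochberg adjustment over all genes tested and a threshold of 0.05, and the code was tested on simulated data. Alternatives were pseudocounts of 0.1 and 10, no filter, a mean of at least 50, TMM factors, a replicate block, edgeR 4.0.16 and DESeq2 1.42.0 on recovered reads, each library left out, the 4 smaller libraries, the 4 with Xist and a Y-linked covariate. α/β ratios were compared by exact two-sided permutation tests. Genes were named if they were members, Irf1 or exon-overlapping genes, up to 4 per list and direction with the largest log2 fold change among called genes with no overlap whose higher group averaged 100 or more, and the 3 genes most like the members with the largest called increase and decrease. Other list genes, single cell type markers and Haspin, which lies within Itgae but shares no exon bases with it, are named outside this rule, chosen after their values were seen. A gene of the other adhesion list is not reported here. Members and lists were chosen with earlier results of these data known.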

Additional observations from a re-analysis of the deposited data

How the results depend on the processing

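Of the 10 members, Itgb1 and Itgb7 were called lower in all 17 alternatives, Itga4 in 15, Itgal in 11, and Itga6 higher in 10. The count of members called lower was 4 and lay between 2 and 4 with 1 library left out (2 without IRF1-deficient replicate 2), and was 5 with the replicate block and in the 4 smaller libraries and 3 with DESeq2, in the 4 libraries with Xist and with the Y-linked covariate. The count called higher was 1. It was 2 with the replicate block, 3 in the 4 smaller libraries, 0 to 2 with 1 library left out, and 0 with DESeq2, in the 4 libraries with Xist and with the Y-linked covariate, where 2, 1 and 1 members were higher at an unadjusted p below 0.05 (edgeR called 1). The sign of the log2 fold change turned for Itgb2 (-0.018 in the 4 libraries with Xist, -0.0031 with the Y-linked covariate), Itgav (-0.056 and -0.049) and Itgb3 (0.067 without WT replicate 3, 0.069 without IRF1-deficient replicate 2, and -0.36 to 0.069 with 1 library left out), none of which passed the test. The α4/β1 ratio difference ranged from -0.50 to 0.022 with 1 library left out, and turned to 0.022 without IRF1-deficient replicate 2. The α4/β7 difference ranged from -0.97 to -0.25 and that of αv/β3 from 0.13 to 0.45. Over all genes, 1406 were lower (2116 with the block, 408 with Xist, 824 to 1472 with 1 library left out) and 1293 higher (403 with Xist, 856 with the covariate, 798 to 1372). Subunits lower were 2 to 5 with 1 library left out. Subunits higher were 4 with the block and in the 4 smaller libraries, 1 at a mean of at least 50, with DESeq2, with Xist and with the covariate, and 1 to 3 with 1 library left out. Ligands lower were 4 with the block, 3 in the smaller libraries and 1 to 2 with 1 left out, and ligands higher 2 with no filter, 4, 3 and 1 to 3. Activation genes lower were 6 with the block, 5 in the smaller libraries and 2 to 5, and those higher 1 with Xist, 4 with the covariate and 4 to 8. Other adhesion genes lower were 5 with Xist and 7 to 10 with 1 left out, and those higher 2 at a mean of at least 50, 9 in the smaller libraries and 3 to 6. The cause was not tested. The range of levels per length was 141 to 186 in WT and 98.3 to 116 in IRF1-deficient cells with 1 library left out. Same-numbered replicates of the genotypes had correlated deviations of 0.092, 0.27 and 0.32 (r across genes, replicates 1, 2 and 3), each the highest for its library, but not over 0.1 in all pairs, so the numbers were taken as names. The replicate block gave Itgae an adjusted p of 0.0118 and Icam1 one of 0.00304 and changed no other member's call.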
